A study of Mus musculus with 15 samples.

Results

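The 6 livers described here came from mice on a high-fat, high-sucrose diet (HF/HS) and were chosen from the 15 libraries of the series by their titles alone, 3 from conventionally raised mice (ConvR) and 3 from germ-free mice (GF). All were male C57BL/6J mice bred in one facility and dissected at 19 weeks of age. From 3 weeks of age they ate an irradiated and autoclaved diet with 44.6% of energy from fat, 40.6% from carbohydrate and 14.8% from protein. ConvR mice had acquired their microbiota from birth, whereas GF mice had never been colonized and their feces were cultured to check sterility. The 2 kinds of mice lived in separate isolators and were caged by colonization status and diet, so that microbiota, isolator and cage cannot be told apart. The same contrast on breeder chow, 3 ConvR against 3 GF mice and sharing no library with this one, is set beside it where useful. Those mice were also 19 weeks old and ate their diet from 3 weeks of age. Chow held 23.7% of energy as fat, 53.2% as carbohydrate and 23.1% as protein. Another group of 3 chow-fed mice, titled ConvD, entered the fit over all 15 libraries and is not compared here. Gene expression was measured by RNA sequencing of whole liver, one library a mouse, and is given as CPM, read counts scaled to a common library total.

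The liver receives blood straight from the gut, and with it microbial products, secondary bile acids, short-chain fatty acids and dietary fat. Hepatocytes handle these through receptors that also run lipid storage and oxidation, sterol synthesis, bile acid metabolism and the breakdown of foreign compounds. The liver also makes most plasma proteins, among them hepcidin, the hormone that closes the iron exporter ferroportin, and the clotting factors. In a liver homogenate, fewer cells of a type and less RNA per cell cannot be told apart.

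Of 12377 genes tested, 200 (1.62%) passed edgeR's quasi-likelihood test at an adjusted p below 0.05 (Benjamini-Hochberg), and a gene is called higher or lower only on that basis. In ConvR livers 109 genes (0.881% of those tested) were higher and 91 (0.735%) lower. At least 2-fold changes made up 51 of the higher and 20 of the lower genes, and the median absolute log2 fold change of called genes was 0.79. For 199 of the 200 the CPM ranges of the 3 ConvR and the 3 GF mice did not overlap, which held for 27.4% of all genes tested. Over all 12377 genes, 5991 differences were positive and 6386 negative, the base for the sign counts of lists below. Signs within a list come from the same 6 livers and are not independent. The higher genes included hepcidin, lipid droplet proteins, enzymes of triglyceride synthesis, a single enzyme of taurine synthesis (Csad), and mitotic genes. The lower genes included importers of iron and zinc (Tfrc and Slc39a4), clotting factors, fetuins, cholesterol synthesis enzymes and ribosomal proteins. Another zinc importer gene, Slc39a5, was higher.

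**Figure D1:**
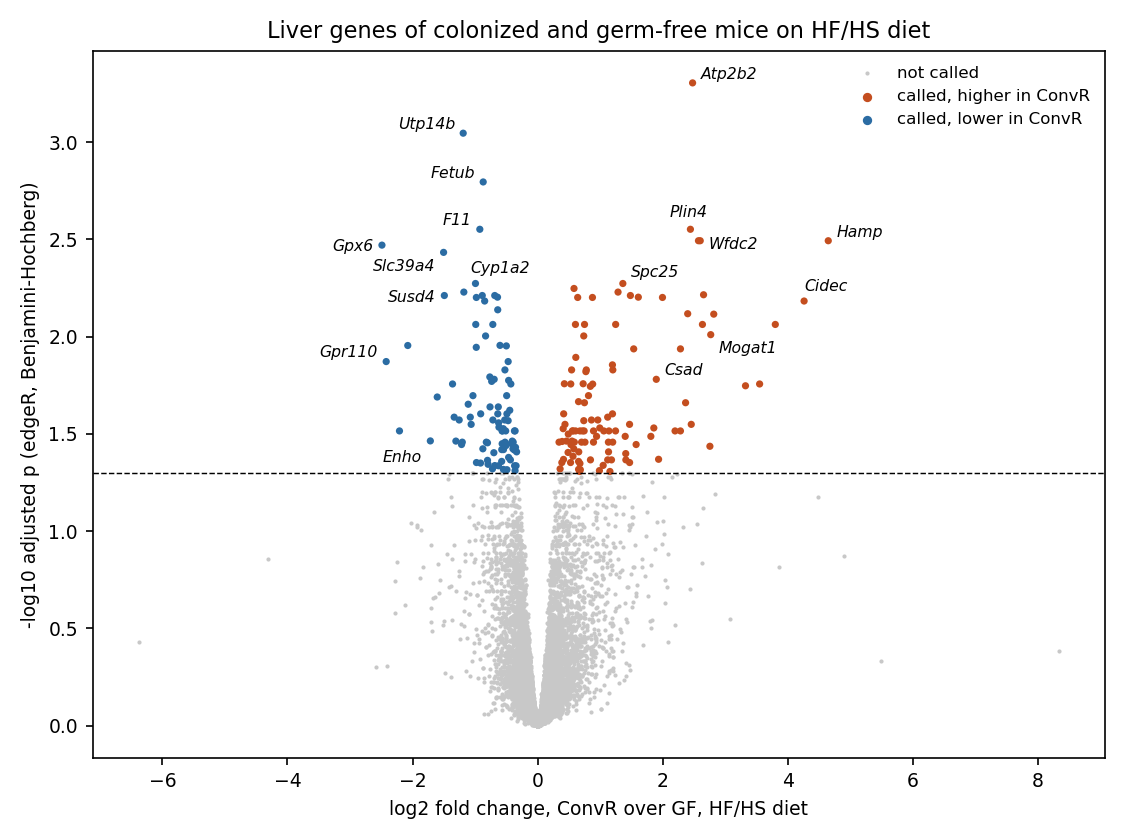
Each point is one of 12377 genes, with the log2 fold change of ConvR over GF livers on the HF/HS diet across and −log10 of the edgeR adjusted p upward; the dashed line marks an adjusted p of 0.05. The 109 called genes on the right reach higher fold changes (Hamp, Cidec) than the 91 on the left (Gpx6, Gpr110).

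These counts hung on single mice and on scaling. Called genes numbered 75, 16 and 45 without GF mouse 1, 2 or 3, and 126, 66 and 280 without ConvR mouse 1, 2 or 3. Scaled by library totals alone, 765 genes were called, 93.5% of them higher in ConvR livers against 54.5% with TMM scaling, as the median of all genes moved from -0.01 to 0.17. Fitting the 6 libraries alone gave 457 calls. The TMM factors, which scaling by totals alone leaves out, were 1.05 to 1.13 in ConvR and 0.963 to 0.974 in GF livers. Albumin (Alb) made up 6.84 to 8.16% of counts in ConvR and 9.11 to 9.5% in GF livers. The part of this albumin difference in the results was not tested. On the first principal component of the 6 libraries (44.0% of variance) the ConvR livers stood at 9.58 to 31.0 and the GF livers at -21.6 to -15.9. ConvR mouse 3 stood apart from the other 5 on the second, at 30.1 against 1.29 or less.

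Hepcidin showed the largest called change. Hamp stood at 15.3, 4.41 and 2.97 CPM in GF mice 1 to 3 and at 217, 96.8 and 260.4 CPM in ConvR mice 1 to 3. Every ConvR value was several times the highest GF value, and the log2 fold change was 4.65 ± 0.60 (± SE, adjusted p = 0.00321, edgeR). The neighbouring paralog Hamp2, from which RSEM must separate its reads, differed by a log2 of 0.04 ± 0.42. Tfrc, the transferrin receptor that takes up iron, fell from 50.4, 69.2 and 71.7 to 33.2, 29.8 and 19.97 CPM. Its log2 fold change was -1.2 ± 0.26 (adjusted p = 0.0349 by edgeR), and the call was lost whichever of the 6 mice was left out, with adjusted p up to 0.159. Slc39a4, the zinc importer ZIP4, measured 53.9, 46.2 and 52.2 CPM in GF livers and 18.7, 23.7 and 11.3 CPM in ConvR livers, a log2 difference of -1.5 ± 0.20 (adjusted p = 0.00369, edgeR). Hamp and Slc39a4 were called whichever mouse was left out.

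Among 23 tested genes of iron and zinc handling, with Hamp counted elsewhere, Slc39a4 and Tfrc were the 2 lower and none was higher. Outside the list, another zinc importer gene, Slc39a5, was called higher and is described at the end. The list's median log2 fold change was -0.01, beside -0.01 over all genes. The BMP ligand gene Bmp6, which drives Hamp transcription, had a log2 difference of 0.68 and its target Id1 one of 0.56, with edgeR adjusted p of 0.364 and 0.619. The ferritin light chain Ftl1 stood at 0.57 (adjusted p = 0.0734, edgeR), and ferroportin, Slc40a1, at 0.51 (0.292). Hamp was also the only 1 of 28 acute phase genes that was called, the list's median being 0.01. With the 6 libraries fitted alone, or without ConvR chow mice 1 and 2 and GF chow mouse 1, 4 of the 28 were higher. Calls rose over all genes too in these 2 settings, to 230 of 12168 and 403 of 12752 higher, against 109 of 12377 in the main fit. Saa2, an acute phase apolipoprotein, measured 8.81, 9.56 and 8.03 CPM in GF and 22.7, 53.8 and 18.1 CPM in ConvR livers (log2 fold change 1.84 ± 0.80, adjusted p = 0.286, edgeR). All 3 ConvR mice lay above all 3 GF mice for Saa2, yet it did not pass the threshold. On chow 19 of the same 28 genes were higher in ConvR livers, against 2.55% of all genes called higher there, and the list's median log2 fold change was 1.82. The ConvR chow mice were uneven. Saa2 on chow measured 12.6, 5.03 and 6.48 CPM in GF and 9887, 12793 and 695 CPM in ConvR mice 1 to 3. Albumin made up 3.46, 2.86 and 6.52% of counts in those 3 ConvR livers. The part of single chow mice in the 19 calls was not tested.

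The promoters of 8 genes that the results turn on are shown for the letters that lie in them: Hamp for its size of change, Cidec, Mogat1, Plin4, Plin5 and Pex11a as called genes of lipid storage and peroxisomes, and Lss and Dhcr7 as the called genes of cholesterol synthesis. Each is the 250 bases before the first listed RefSeq start, 5′ to 3′ on the gene's strand, from RefSeq on GRCm38.p6; capitals mark any match to the motifs named after them.
Hamp (chr7:30944030-30944279, minus strand): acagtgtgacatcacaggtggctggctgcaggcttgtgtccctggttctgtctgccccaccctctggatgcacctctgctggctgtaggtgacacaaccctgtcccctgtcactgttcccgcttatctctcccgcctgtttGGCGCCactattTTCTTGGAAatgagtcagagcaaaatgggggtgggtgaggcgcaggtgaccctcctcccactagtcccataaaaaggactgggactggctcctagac
Cidec (chr6:113435761-113436010, minus strand): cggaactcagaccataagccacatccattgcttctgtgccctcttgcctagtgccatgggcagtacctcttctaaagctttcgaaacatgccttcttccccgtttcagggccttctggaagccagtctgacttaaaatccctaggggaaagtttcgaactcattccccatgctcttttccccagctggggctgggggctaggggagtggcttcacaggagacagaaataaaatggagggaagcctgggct
Mogat1 (chr1:78510810-78511059, plus strand): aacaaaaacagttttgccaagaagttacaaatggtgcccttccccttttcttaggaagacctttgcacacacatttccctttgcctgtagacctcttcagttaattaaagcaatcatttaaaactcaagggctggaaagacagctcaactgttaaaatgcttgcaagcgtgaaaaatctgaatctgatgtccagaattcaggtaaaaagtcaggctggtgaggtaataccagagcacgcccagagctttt
Plin4 (chr17:56109783-56110032, minus strand): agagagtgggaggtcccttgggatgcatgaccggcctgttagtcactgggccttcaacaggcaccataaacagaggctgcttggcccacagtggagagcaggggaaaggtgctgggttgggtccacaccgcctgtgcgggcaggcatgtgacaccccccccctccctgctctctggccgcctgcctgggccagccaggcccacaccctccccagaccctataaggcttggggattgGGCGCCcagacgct
Plin5 (chr17:56117549-56117798, minus strand): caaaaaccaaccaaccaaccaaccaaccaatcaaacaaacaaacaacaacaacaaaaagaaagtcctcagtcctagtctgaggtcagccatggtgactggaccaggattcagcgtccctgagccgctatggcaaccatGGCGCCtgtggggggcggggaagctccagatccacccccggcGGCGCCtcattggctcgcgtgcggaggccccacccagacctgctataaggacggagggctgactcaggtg
Pex11a (chr7:79743132-79743381, minus strand): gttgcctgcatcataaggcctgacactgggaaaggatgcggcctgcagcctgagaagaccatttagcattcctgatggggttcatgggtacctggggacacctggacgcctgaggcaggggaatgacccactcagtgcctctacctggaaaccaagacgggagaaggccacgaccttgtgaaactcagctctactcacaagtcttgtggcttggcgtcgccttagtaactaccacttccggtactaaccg
Lss (chr10:76531355-76531604, plus strand): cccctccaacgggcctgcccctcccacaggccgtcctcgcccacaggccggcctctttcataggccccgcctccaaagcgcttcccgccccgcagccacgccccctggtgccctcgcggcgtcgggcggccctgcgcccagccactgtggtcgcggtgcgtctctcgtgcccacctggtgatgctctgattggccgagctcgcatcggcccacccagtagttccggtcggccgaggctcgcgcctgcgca
Dhcr7 (chr7:143822917-143823166, plus strand): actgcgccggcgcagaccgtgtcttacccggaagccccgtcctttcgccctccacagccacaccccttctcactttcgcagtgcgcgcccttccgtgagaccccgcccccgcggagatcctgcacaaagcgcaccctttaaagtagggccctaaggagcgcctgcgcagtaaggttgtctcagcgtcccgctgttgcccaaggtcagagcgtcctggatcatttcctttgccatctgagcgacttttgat
Both strands were searched for 4 motifs. GGCGCC, the core of the BMP response element, began 109 bases before the Hamp start, 14 before that of Plin4, and 112 and 70 before that of Plin5; 9.59% of 32851 RefSeq windows of this length hold it. TTCNNNGAA, the core bound by STAT factors, began 97 bases before the Hamp start and in 7.02% of windows occurs at least once. Neither the nuclear receptor repeat, 2 AGGNCA half-sites in one direction with 1 base between them (0.338% of windows), nor the sterol regulatory core TCACNCCAC (1.05%) was among these letters in any of the 8. No motifs overlapped one another in these windows.

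Among genes that coat or enlarge lipid droplets, Cidec, Plin4 and Plin5 were higher in ConvR livers. Cidec, which fuses droplets into larger ones, stood at 2.63, 1.37 and 1.397 CPM in GF mice and at 26.4, 69.5 and 9.01 CPM in ConvR mice. ConvR mouse 2 had the highest level and ConvR mouse 3 the lowest, which was still above every GF mouse, and the log2 fold change was 4.26 ± 0.66 (adjusted p = 0.00656, edgeR). Plin4, a droplet coat protein, rose from 8.402, 5.15 and 5.18 to 25.96, 54.2 and 22.4 CPM. Its log2 fold change was 2.45 ± 0.30 (adjusted p = 0.00281, edgeR). Plin5, which tethers droplets to mitochondria, went from 35.02, 30.6 and 34.2 to 67.7, 69.96 and 45.8 CPM, or 0.88 ± 0.13 on the log2 scale (adjusted p = 0.00629 by edgeR). The 3 genes shared the order of the ConvR mice, with mouse 3 lowest in each.

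Of 22 tested genes of lipid droplets and PPAR gamma, 4 were higher, the 3 above and Mogat1, and none lower. The list's median log2 fold change was 0.43, beside -0.01 over all genes and -0.07 for the same genes on chow. In 12 of the 22 the ConvR range lay wholly above the GF range, which held for 12.7% of all genes, and in none below. The list's median was 0.31 to 0.50 whichever mouse was left out, and 1 to 7 of its genes were higher, the 1 being Plin4 without GF mouse 2. Among the rest, Cd36, a fatty acid importer, stood at 90.3, 81.98 and 106 CPM in GF and 209.7, 295 and 122 CPM in ConvR livers. Its ranges did not overlap, yet it missed the threshold, at a log2 fold change of 1.17 ± 0.29 (adjusted p = 0.0542, edgeR). Pparg itself, which drives several of these genes, had a log2 difference of 0.96 (adjusted p = 0.182 by edgeR). Cidea, related to Cidec, measured 1.87, 0.473 and 0.699 CPM in GF and 3.67, 13.2 and 1.501 CPM in ConvR mice, with overlapping ranges. Within the ConvR group, mouse 2 was highest for 18 of the 22 genes and mouse 3 lowest for 17.

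Of 2 lists, triglyceride synthesis with lipases and fatty acid oxidation, 3 members were called. Mogat1, which makes diacylglycerol from monoacylglycerol, rose from 0.709, 0.473 and 0.815 to 5.62, 5.15 and 2.91 CPM, a log2 fold change of 2.77 ± 0.46 (adjusted p = 0.00977, edgeR). Mgll, the monoglyceride lipase, stood at 193, 154 and 183 CPM in GF and at 338, 331 and 240.4 CPM in ConvR mice, a log2 difference of 0.78 ± 0.14 (adjusted p = 0.0148, edgeR). They were the 2 called members among 19 genes of triglyceride synthesis and lipases, whose median was 0.07. Of 41 genes of fatty acid oxidation and PPAR alpha, Pex11a alone was called. It helps peroxisomes divide and went from 20.4, 19.2 and 19.6 to 43.1, 59.8 and 38.3 CPM (log2 fold change 1.25 ± 0.20, adjusted p = 0.00866, edgeR). In all, 38 of the 41 differences were positive, and the list's median was 0.20, beside -0.35 on chow, or 0.32 without ConvR mouse 3. The largest uncalled differences were those of Cyp4a14 (1.2), Acot3 (1.19) and Vnn1 (1.05), all PPAR alpha targets, while Cpt1a stood at 0.06.

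None of 27 fatty acid synthesis genes was called, and their median was -0.14, or 0.04 when libraries were scaled by totals alone. Fasn, fatty acid synthase, measured 799, 736 and 555 CPM in GF and 688, 948 and 439 CPM in ConvR livers, and the ranges overlapped (log2 fold change -0.01 ± 0.24, adjusted p = 0.994, edgeR). For Scd1, stearoyl-CoA desaturase, the difference was 0.09 ± 0.38 (adjusted p = 0.947). Acly, which makes cytosolic acetyl-CoA, stood at 727, 665 and 531 CPM in GF and 305, 450.2 and 348 CPM in ConvR mice (log2 fold change -0.80 ± 0.19, adjusted p = 0.0504, edgeR).

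Apolipoprotein genes were called in both directions. Apoa4, made on lipid loading and carried by lipoproteins, rose from 436, 362 and 311 to 1665, 3581 and 1359 CPM. The log2 fold change was 2.57 ± 0.33 (adjusted p = 0.00321, edgeR), and the call held whichever mouse was left out. Apoc2, the cofactor of lipoprotein lipase, went from 221, 206 and 199 to 367, 402 and 284 CPM, or 0.75 ± 0.12 on the log2 scale (adjusted p = 0.00866 by edgeR). Apom, the carrier of sphingosine-1-phosphate on HDL, fell from 169.5, 175 and 167 to 107, 92.2 and 134 CPM, by -0.62 ± 0.13 (adjusted p = 0.0292). Of the 23 genes of the list 2 were higher and 1 lower, around a median of -0.07, which turned to 0.10 when libraries were scaled by totals alone. Apoa1, the main HDL protein, differed by a log2 of -0.78 (adjusted p = 0.0545 by edgeR) and Apob by 0.12.

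In the list of cholesterol synthesis 2 genes were lower in ConvR livers. Lss, lanosterol synthase, fell from 71.3, 60.7 and 47.7 to 26.8, 45.96 and 29.2 CPM, a log2 fold change of -0.82 ± 0.18 (adjusted p = 0.0349, edgeR). Dhcr7, the last enzyme of one branch of the pathway, measured 118, 102 and 88.7 CPM in GF and 50.2, 85.4 and 51.997 CPM in ConvR mice (log2 fold change -0.72 ± 0.17, adjusted p = 0.0478, edgeR). In both genes ConvR mouse 2 stood nearest to the GF mice. These were the 2 lower of 27 genes of cholesterol synthesis and SREBP2 targets, none being higher, and 24 of the 27 differences were negative. The count of lower genes was 10 without ConvR mouse 2, 1 without GF mouse 3 and 0 without any of the other 4 mice. It was 9 in DESeq2, 11 without ConvR chow mice 1 and 2 and GF chow mouse 1 in the shared fit, and 0 when scaled by totals alone. Over all genes these 3 settings called 244, 411 and 50 lower, against 91 in the main fit and 35 without ConvR mouse 2. The list's median was -0.53, beside -0.26 on chow, and lay between -0.81 and -0.38 whichever mouse was left out. ConvR mouse 2 was the highest of the ConvR group for 22 of the 27 genes and mouse 1 the lowest for 19, and with mouse 2 left out the median was the -0.81. Lss lost its call without GF mouse 1 or 2 or ConvR mouse 1 or 3, and Dhcr7 kept it only without ConvR mouse 2.

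**Figure D2:**
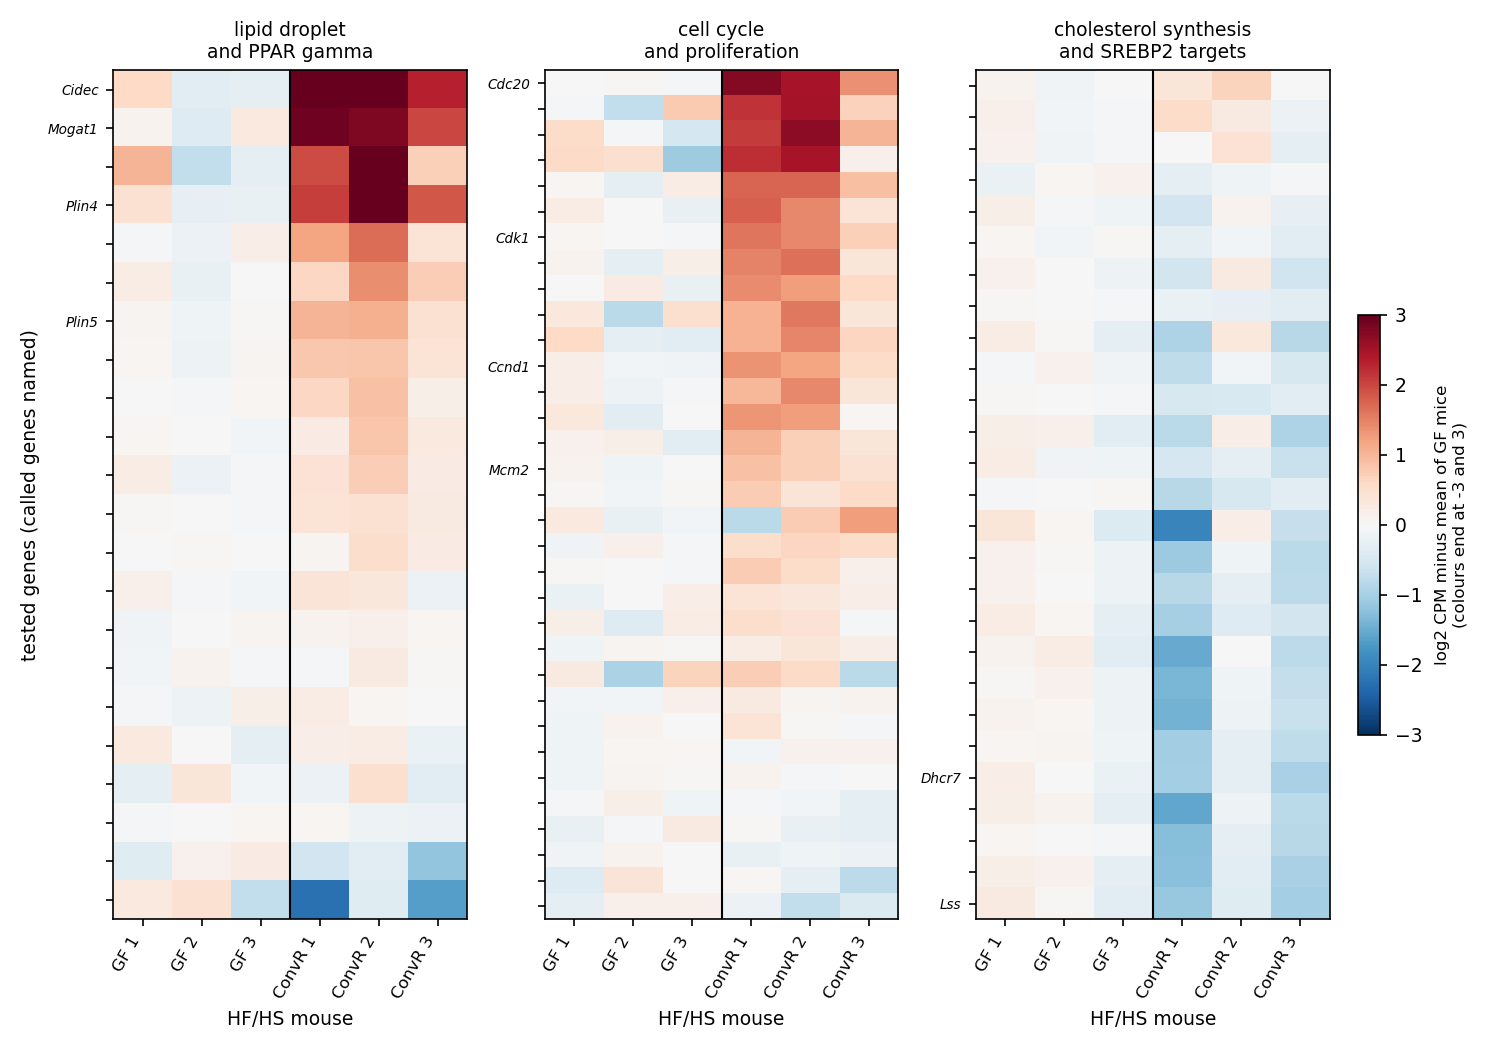
Columns are the 3 GF and 3 ConvR mice on HF/HS, rows the tested genes of 3 lists, and colour the log2 CPM minus the mean of the GF mice; only called genes are named. ConvR mouse 2 has the highest CPM of the ConvR mice for 18 of 22 lipid droplet genes, though capped colours can look alike. For most cholesterol synthesis genes ConvR mouse 1 is the lowest of the ConvR mice and mouse 2 the highest.

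Few genes of bile acid metabolism were called. Csad, which makes hypotaurine on the way to the taurine of bile salts, rose from 34.5, 31.5 and 36.7 to 72.7, 149 and 161 CPM. ConvR mouse 1 was well below the other 2, and the log2 fold change was 1.9 ± 0.35 (adjusted p = 0.0166, edgeR). Of 11 genes of taurine and cysteine metabolism it was the only one called, the median being -0.18, or -0.03 without ConvR mouse 2 and 0.01 on TPM. Cyp39a1, the oxysterol 7α-hydroxylase, went from 12.7, 12.9 and 11.4 to 23.7, 24.7 and 18.2 CPM (log2 fold change 0.85 ± 0.19, adjusted p = 0.043, edgeR) and was the 1 called gene among 18 of bile acid synthesis. Cyp7a1, the rate-limiting enzyme of the classic route, measured 17.2, 25.1 and 20.3 CPM in GF and 12.4, 23.7 and 16.6 CPM in ConvR livers. Its ranges overlapped, and the difference of -0.25 ± 0.30 on the log2 scale did not pass the test (adjusted p = 0.767, edgeR). Of 18 genes of bile acid transport and FXR signalling, Abcb4 alone was called. This flippase puts phospholipid into bile and stood at 246, 231 and 255 CPM in GF and 367, 354 and 337 CPM in ConvR mice (log2 fold change 0.53 ± 0.10, adjusted p = 0.0175, edgeR). The uptake transporter Slco1a4 had a log2 difference of -1.37 (adjusted p = 0.0745 by edgeR). Csad and Abcb4 each lost their calls without GF mouse 1, 2 or 3 or ConvR mouse 2, and Cyp39a1 also without ConvR mouse 1, at adjusted p up to 0.0997, 0.117 and 0.168.

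Enzymes that handle foreign compounds were called in both directions. Ephx1, microsomal epoxide hydrolase, rose from 137, 145 and 155 to 311, 359.8 and 337 CPM, a log2 fold change of 1.2 ± 0.22 (adjusted p = 0.0148, edgeR). Aox1, an aldehyde oxidase, and Ugdh, which makes the sugar donor for glucuronidation, rose by 0.99 ± 0.23 and 0.81 ± 0.16 (adjusted p = 0.0488 and 0.0201 by edgeR). These 3 were the higher members among 34 NRF2 targets and glutathione transferases, none was lower, and the median was 0.27 against -0.13 on chow, or 0.14 without ConvR mouse 2. None of the 3 was called without GF mouse 1, 2 or 3 or ConvR mouse 2. Gsta1 had the largest difference in the list, 4.48, but not a call (adjusted p = 0.0667, edgeR), and it shares reads with Gsta2. Canonical NRF2 targets such as Nqo1 (0.97, adjusted p = 0.129), Gclc (0.49, 0.311) and Hmox1 (0.32, 0.57) did not pass.

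Cyp1a2, a target of the aryl hydrocarbon receptor, fell from 414, 484 and 494 to 244, 183 and 272 CPM. The log2 fold change was -0.99 ± 0.14 (adjusted p = 0.00533, edgeR), it was called whichever mouse was left out, and it was the only call among 8 AHR targets tested. Of 23 genes of CAR and PXR drug metabolism 1 was higher, Cyp2c38 (25.8, 26.4 and 42.6 CPM in GF, 67.003, 87.5 and 56.7 CPM in ConvR), and 1 lower, Cyp2c54 (302, 375 and 486 and 135, 83.5 and 163 CPM). Their log2 fold changes were 1.16 ± 0.27 and -1.6 ± 0.31 (adjusted p = 0.0493 and 0.0204 by edgeR), and reads of the Cyp2c paralogs are hard to separate. Cyp3a11, the main PXR target, was at 826, 1004 and 995 CPM in GF and 815, 1146 and 734 CPM in ConvR livers, with overlapping ranges and a difference of -0.07 ± 0.32 (adjusted p = 0.954, edgeR). Of 33 conjugating and esterase enzymes, Ugt1a9 rose by 1.47 ± 0.30 and the sulfotransferase Sult1a1 fell by 0.57 ± 0.13 (adjusted p = 0.0282 and 0.0438 by edgeR). Ugt1a9 shares exons with the rest of the Ugt1a locus, and its ConvR values ran from 28.3 to 89.9 CPM against 17.3 to 23.2 CPM in GF livers.

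Genes of cell division were called in ConvR livers, Cdc20, Cdk1 and Ccnd1 among them. Cdc20, which activates the anaphase ubiquitin ligase, stood at 0.304, 0.315 and 0.291 CPM in GF mice and 2.64, 2.18 and 0.955 CPM in ConvR mice. The difference was 2.64 ± 0.43 on the log2 scale (adjusted p = 0.00866, edgeR). Cdk1, the mitotic kinase, rose from 0.759, 0.736 and 0.699 to 2.42, 2.18 and 1.27 CPM, and Ccnd1, the G1 cyclin, from 18.6, 15.1 and 14.8 to 41.3, 36.5 and 23.5 CPM. Their log2 fold changes were 1.41 ± 0.32 and 1.06 ± 0.22 (adjusted p = 0.0399 and 0.0305 by edgeR). With Mcm2, a subunit of the replicative helicase (0.70 ± 0.15, adjusted p = 0.0349), these were the 4 higher of 33 cell cycle genes, and none was lower. The list's median was 0.70, beside 0.24 on chow, and 28 of the 33 differences were positive. With a stricter filter on low counts (minimum 50), which tests fewer of its genes, the median was 0.33, and on log2(TPM + 1) it was 0.47. In 17 of the 33 the ConvR range lay above the GF range and in 1 below, beside 12.7% and 14.6% of all genes. Spc25, a kinetochore protein outside the list, went from 2.13, 2.36 and 1.86 to 5.702, 6.04 and 4.69 CPM (log2 fold change 1.36 ± 0.19, adjusted p = 0.00533, edgeR). ConvR mouse 3 was lowest of the ConvR group for 25 of the 33 genes. Without that mouse 12 were higher, without GF mouse 2 or 3 none, and without any of the other 3 a single gene. Over all genes 171 were higher without ConvR mouse 3, against 109 in the main fit.

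**Figure D3:**
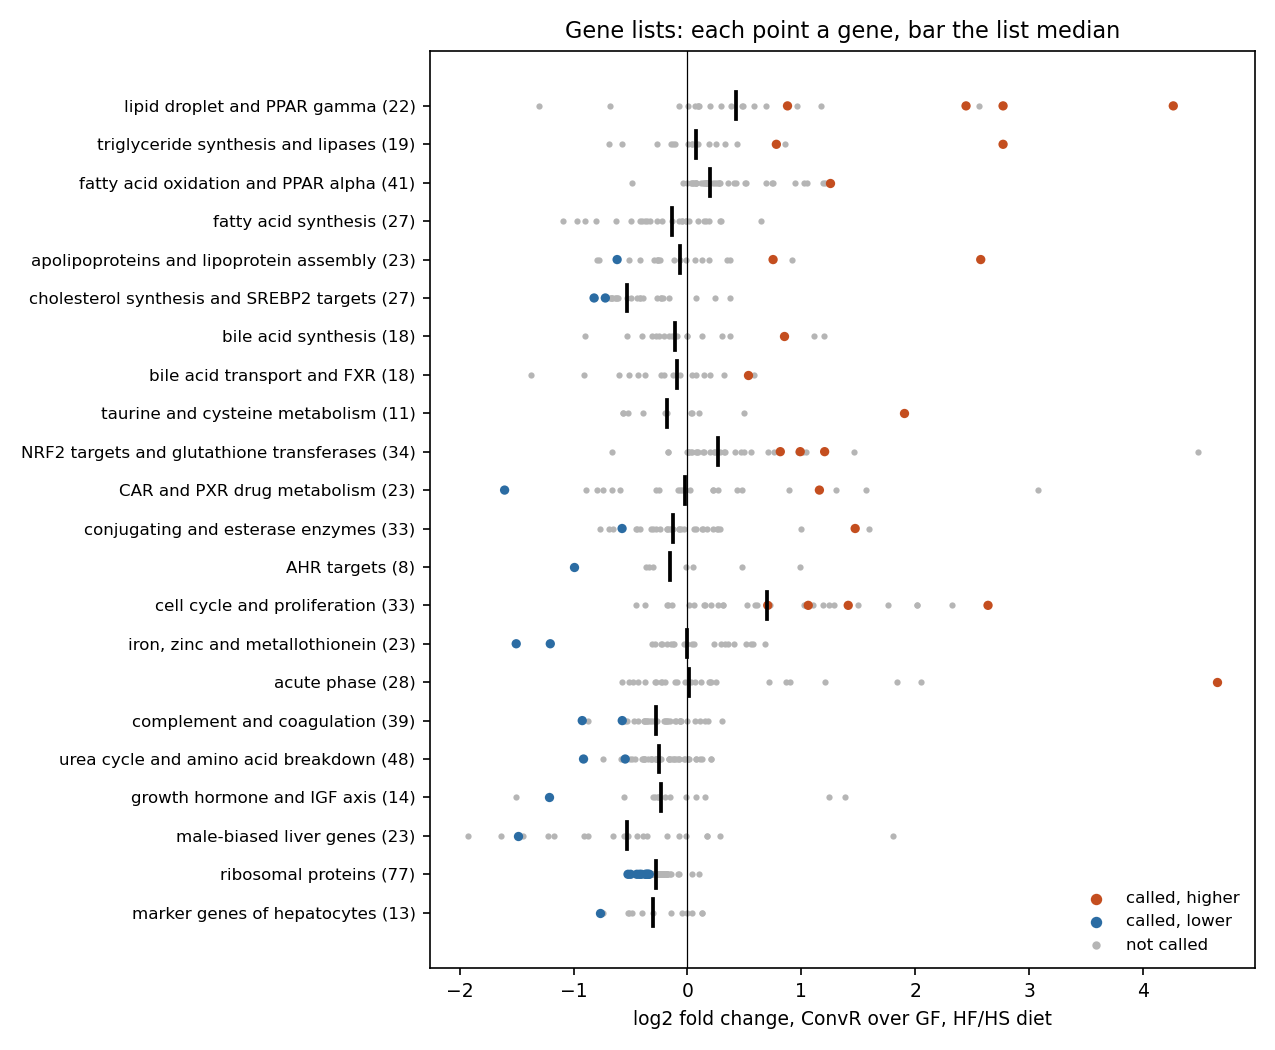
Points are the log2 fold changes of ConvR over GF on HF/HS for tested genes of 22 lists (number in brackets), coloured where called, and black bars are list medians. Medians run from -0.53 for cholesterol synthesis and male-biased genes to 0.70 for the cell cycle.

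Ribosomal protein genes were called in one direction, with small differences. Of 77 tested, 10 were lower in ConvR livers and none higher, and in 69 the ConvR range lay wholly below the GF range, beside 14.6% of all genes. Their median log2 fold change was -0.28. Rpl3, of the large subunit, fell from 266, 295 and 263 to 193, 189.7 and 191 CPM (-0.52 ± 0.09 on the log2 scale, adjusted p = 0.0148, edgeR), and Rpl12 from 143, 151 and 135 to 97.2, 97.5 and 109 CPM (-0.50 ± 0.09, adjusted p = 0.0112). Rplp1, of the ribosomal stalk, and Rpl5 fell by 0.44 ± 0.09 and 0.36 ± 0.08 (adjusted p = 0.0239 and 0.0305 by edgeR). Scaled by library totals alone the median was -0.11 with 1 gene lower, and on TPM -0.07 with none, beside medians over all genes of 0.17 and 0.16. The count was 0 to 8 whichever mouse was left out, the 0 without GF mouse 2 or ConvR mouse 2.

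Clotting factors and other plasma proteins were among the lower genes. F11, coagulation factor XI, fell from 86.4, 84.9 and 87.6 to 53.4, 39.1 and 43.9 CPM, a log2 fold change of -0.92 ± 0.11 (adjusted p = 0.00281, edgeR). F7, coagulation factor VII, went from 80.5, 80.5 and 84.003 to 58.1, 47.4 and 59.2 CPM (-0.57 ± 0.13, adjusted p = 0.0381 by edgeR). These were the 2 lower of 39 complement and coagulation genes, of which 34 differences were negative around a median of -0.27. The count was 5 without ConvR mouse 3 and 1 without any other mouse, and the median was -0.18 without ConvR mouse 2 and -0.10 when scaled by totals alone. The fetuins Fetub and Ahsg, plasma protease inhibitors, fell from 401, 401 and 408 and 6214, 6989 and 7166 CPM to 212, 214 and 237 and 4243, 3739.9 and 4018 CPM. Their log2 fold changes were -0.87 ± 0.10 and -0.76 ± 0.14 (adjusted p = 0.0016 and 0.0161 by edgeR). Ahsg was the 1 called gene among 13 hepatocyte markers, whose median was -0.31, or -0.14 when scaled by totals alone; summed TPM of those markers was 80800 to 99930 in ConvR and 105500 to 109400 in GF livers.

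Of the list of the urea cycle and amino acid breakdown, Agxt and Gnmt were lower. Agxt, the peroxisomal glyoxylate aminotransferase, fell from 311, 296 and 332 to 218, 143 and 138 CPM and Gnmt, glycine N-methyltransferase, from 1033, 1119.7 and 1135 to 863, 660.2 and 728 CPM. Log2 fold changes were -0.91 ± 0.21 and -0.55 ± 0.13 (adjusted p = 0.0447 and 0.0481 by edgeR). They were the 2 lower of 48 genes, with none higher and a median of -0.25. That count was 6 without ConvR mouse 1 and 0 without any other mouse, 8 in DESeq2 and 0 when scaled by totals alone. Over all genes 58 were lower without ConvR mouse 1, 244 in DESeq2 and 50 when scaled by totals alone, against 91 in the main fit. The median was -0.14 without ConvR mouse 2 and -0.08 when scaled by totals alone. Outside the list and chosen after their values were seen, Gcat and Dmgdh, enzymes of threonine and choline breakdown, fell by 0.60 ± 0.10 and 0.55 ± 0.11 (adjusted p = 0.0111 and 0.0297 by edgeR). Gulo, the last enzyme of vitamin C synthesis, stood at 530.2, 600.1 and 604 CPM in GF and 388, 327 and 398 CPM in ConvR mice (-0.64 ± 0.10, adjusted p = 0.00627 by edgeR).

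Hormone-linked genes gave few calls. Igfbp2, an IGF-binding protein, fell from 277, 379 and 378 to 153, 111 and 181 CPM (-1.22 ± 0.27 on the log2 scale, adjusted p = 0.0359, edgeR), the only call among 14 genes of the growth hormone and IGF axis. Susd4, a complement regulator counted among 23 male-biased liver genes, fell from 24.6, 25.3 and 25.3 to 7.39, 5.49 and 13.8 CPM and was the only one of them called (-1.49 ± 0.22, adjusted p = 0.00615 by edgeR). The median of that list was -0.53 and depended on single ConvR mice, of which mouse 3 was highest for 22 of the 23 genes and mouse 2 lowest for 19. Without mouse 3 the median was -0.96 and 13 of the genes were lower, and without mouse 2 it was -0.28 with 1 gene lower. Over all genes 109 were lower without ConvR mouse 3 and 35 without ConvR mouse 2, against 91 in the main fit. Enho, which encodes the secreted peptide adropin, measured 5.11, 4.099 and 4.95 CPM in GF and 1.47, 0.841 and 1.96 CPM in ConvR mice (-1.71 ± 0.37, adjusted p = 0.0344 by edgeR). Avpr1a, the vasopressin receptor of hepatocytes, fell from 36.9, 37.2 and 35.6 to 15.7, 11.3 and 21.3 CPM, by -1.18 ± 0.17 (adjusted p = 0.0059). Of 22 insulin and FOXO genes none was called, although the insulin receptor substrate Irs2 stood at 16.7, 23.02 and 24.6 CPM in GF and 7.21, 6.98 and 6.23 CPM in ConvR livers (-1.65 ± 0.44, adjusted p = 0.0794, edgeR). Its relative Irs1 measured 46.7, 49.7 and 54.3 CPM in GF and 33.4, 24.99 and 34.7 CPM in ConvR livers (-0.69 ± 0.18, adjusted p = 0.0648, edgeR).

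Several of the largest changes lay outside these lists. Atp2b2, a plasma membrane calcium pump, had the smallest adjusted p of the comparison, 0.000496 by edgeR. It stood at 2.28, 1.42 and 1.63 CPM in GF and 11.8, 8.02 and 10.1 CPM in ConvR mice, a log2 fold change of 2.48 ± 0.23. Wfdc2, a small secreted protease inhibitor, rose from 1.62, 1.42 and 1.22 to 7.91, 12.5 and 5.69 CPM, or 2.6 ± 0.34 (adjusted p = 0.00321). Tsku, a secreted leucine-rich protein, rose from 18.6, 12.03 and 16.4 to 68.9, 89.6 and 89.8 CPM, or 2.4 ± 0.38 (adjusted p = 0.00762 by edgeR). Ly6d, Ntrk2, the BDNF receptor, Hr, a nuclear corepressor, and Rad51l1, a recombination gene, rose by 3.55 ± 0.66, 2.82 ± 0.45, 2.66 ± 0.39 and 2.46 ± 0.50. All 4 were at or below 21.97 CPM in every mouse of the comparison, and none was called without GF mouse 2. On smaller folds, Slc16a13, a monocarboxylate transporter, Serinc2, Fam131c and the phospholipase Abhd3 rose by 1.61 ± 0.24, 1.29 ± 0.19, 1.49 ± 0.22 and 0.58 ± 0.08, at edgeR adjusted p of 0.00627, 0.0059, 0.00615 and 0.00565.

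The steepest fall was that of Gpx6, a glutathione peroxidase, from 9.01, 5.83 and 4.66 to 1.04, 1.68 and 0.773 CPM (-2.49 ± 0.33 on the log2 scale, adjusted p = 0.00338, edgeR). Gpr110, an adhesion receptor, stood at 10.5, 14.2 and 9.14 CPM in GF and 0.994, 0.9401 and 4.37 CPM in ConvR mice (-2.42 ± 0.43, adjusted p = 0.0134 by edgeR). Cela1, an elastase, fell from 26.8, 30.2 and 32.7 to 11.02, 8.46 and 15.4 CPM (-1.36 ± 0.25, adjusted p = 0.0175); of 14 exocrine pancreas markers only it and Cela2a passed the filter on low counts, and Cpb1 had no reads in any of the 6 livers. Dsg1c, a desmosomal cadherin with near-identical paralogs, fell by 1.33 ± 0.27 (adjusted p = 0.0259 by edgeR). Utp14b fell from 10.6, 11.2 and 11.002 to 5.49, 4.65 and 4.23 CPM (-1.19 ± 0.12, adjusted p = 0.0009, edgeR), but it lies inside the gene Acsl3, whose own difference was -0.63 ± 0.16 (adjusted p = 0.0675). Smo, the Hedgehog signal transducer, and Cnp, a cyclic nucleotide phosphodiesterase, fell by 0.88 ± 0.13 and 0.68 ± 0.10 (adjusted p = 0.00615 and 0.00615 by edgeR). Cnp, Csad, Enho, Pex11a, Plin4, Cdc20, Sult1a1, Apoc2, Ccnd1 and Rpl5 each overlap another coding gene in the RefSeq annotation, and reads of the pair could be mixed.

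**Figure D4:**
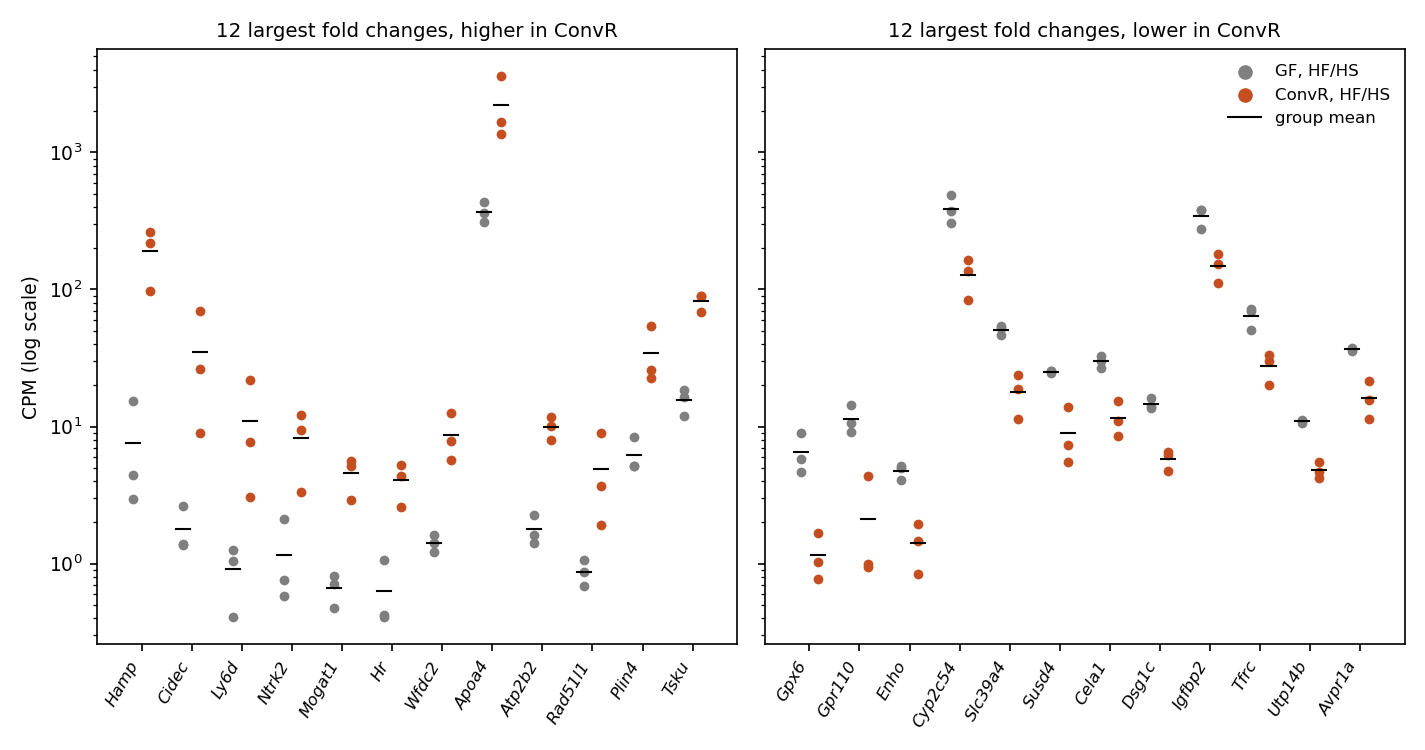
CPM on a log scale in each GF (grey) and ConvR (orange) mouse on HF/HS for the 12 largest called log2 fold changes each way, with bars at group means. By the rule that chose them no ranges overlap; Hamp, Cidec and Ly6d spread most between mice of a group.

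Gene lists without any call covered interferon response (41 genes tested), MHC class II (8), microbial sensing (26), immediate early genes (20), stress responses (22), the circadian clock (18), sterol efflux (15), glycolysis and gluconeogenesis (32), female-biased genes (10), histone acetylation (36) and methylation enzymes (53), respiratory chain (75) and proteasome subunits (39). Their medians ran from -0.41 for MHC class II to 0.24 for female-biased genes. Scaled by totals alone, the medians of the immediate early, clock, sterol efflux, glycolysis, histone, respiratory chain and proteasome lists turned from negative to positive. For the members with the smallest p in each list, none of them called, log2 differences are given with the edgeR adjusted p in brackets. Among genes of defence, the interferon-induced Ifi27l2a and Ifi47 stood at 1.05 (0.112) and -0.63 (0.28). The MHC class II chains H2-Ab1 and H2-Ob stood at -0.64 (0.398) and 0.73 (0.372), and the flagellin receptor Tlr5 and the kinase Irak1 at 0.74 (0.206) and 0.20 (0.169). Tlr5 lay at 5.99 to 7.39 CPM in GF and 10.3 to 12.9 CPM in ConvR mice, without overlap. Outside these lists and chosen after their values were seen, Nlrp6, Gsdmd and the glycolytic Aldoc were called lower. Their log2 differences were -0.52, -0.56 and -0.80 (adjusted p = 0.0349, 0.0305 and 0.0432 by edgeR). On chow Nlrp6 was also called lower (-0.58), while Gsdmd stood at 0.41 and was not called. Of fast-responding genes, the nuclear receptor Nr4a1 and Ier2 differed by -2.12 (0.239) and -0.53 (0.575), and the stress genes Nupr1 and Sdf2l1 by 1.11 (0.0675) and 0.80 (0.174). The clock repressors Per2 and Nfil3 stood at -0.65 (0.219) and -0.54 (0.379). In metabolism, the HDL receptor Scarb1 and the sterol esterifying Soat2 stood at -0.35 (0.18) and -0.26 (0.22), the glycolytic Pgam1 at 0.32 (0.0923) and the glucokinase regulator Gckr at -0.38 (0.129). The oestrogen sulfotransferase Sult1e1 and the proton pump subunit Atp6v0d2, both female-biased, were at -1.58 (0.208) and -1.83 (0.152). The deacetylases Sirt1 and Hdac2 differed by -0.49 (0.143) and -0.25 (0.212), the methyltransferases Prmt1 and Setd8 by -0.28 (0.114) and 0.30 (0.0981), the respiratory subunits Ndufb10 and Cox7a1 by -0.21 (0.305) and 0.58 (0.39), and the proteasome subunits Psma4 and Psmb1 by -0.19 (0.349) and -0.15 (0.353).

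The marker lists of other liver cells gave no calls either. Outside them and chosen after its values were seen, the endothelial gene Plvap was called higher. Its log2 fold change was 0.42 ± 0.09 (adjusted p = 0.0428, edgeR). All 11 monocyte and recruited macrophage genes tested had positive differences, with a median of 0.62 and a summed TPM of 52.0 to 78.1 in ConvR and 37.6 to 42.6 in GF livers. That median was 0.37 without ConvR mouse 2 and 0.35 with the stricter filter. Its members Itgax and Cx3cr1 stood at 1.18 and 0.86 (adjusted p = 0.358 and 0.34 by edgeR). Of 18 Kupffer cell genes 16 were positive (median 0.18), and of 11 T and NK cell genes 7 were negative (median -0.47, or -0.25 without ConvR mouse 2). On log2(TPM + 1) the T and NK cell median was -0.10. The summed TPM of T and NK cell markers overlapped, at 12.3 to 14.1 in ConvR and 11.9 to 14.8 in GF livers. The Kupffer cell genes Emr1 and Folr2 stood at 0.47 and 0.29 (adjusted p = 0.383 and 0.425 by edgeR). The T cell co-receptor Cd4 measured 3.09, 2.94 and 2.74 CPM in GF and 1.08, 0.495 and 1.68 CPM in ConvR livers, a log2 difference of -1.41 (adjusted p = 0.051, edgeR), and Cd3d stood at -1.17 (adjusted p = 0.142). One member of that list was lower without ConvR mouse 3. The neutrophil, B cell, stellate, endothelial, cholangiocyte and red blood cell lists had medians of 0.29, 0.18, 0.05, 0.08, 0.25 and -0.40. These moved with single mice: with one left out they ran from 0.01 to 0.58 for neutrophils, -0.04 to 0.37 for B cells, -0.05 to 0.14 for stellate cells, 0.02 to 0.15 for endothelium and -0.63 to -0.04 for red blood cells. For cholangiocytes they reached 0.34 and were 0.00036 without ConvR mouse 2. The neutrophil genes Cxcr2 and Prtn3 stood at -0.53 and -2.4, the B cell genes Cd79b and Fcer2a at 0.39 and 0.31, the collagens Col1a1 and Col1a2 at 1.16 and 0.75, the endothelial Ptprb and Ehd3 at 0.32 and 0.30, the cholangiocyte gene Spp1 at 0.58, and the globins Hbb-b1 and Hba-a2 at -0.53 and -2.59, with adjusted p from edgeR of 0.167 to 0.782. Prtn3 lay near the floor, at 1.11, 0.315 and 0.0582 CPM in GF and 0.13, 0.0495 and 0.091 CPM in ConvR livers. On chow it measured 20.95, 21.9 and 1.57 CPM in ConvR mice 1 to 3. Of the 6 neutrophil genes tested, 3 differences were positive and 3 negative. No member of any of these lists was at 0 in all 6 livers. Of the adipocyte markers Cfd, Fabp4 and Cidea were tested and none was called, and Plin1 had no reads in any of the 6 livers.

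Side by side with chow, 42 of the 200 called genes were also called there, all in the same direction, which is 21.0% of the HF/HS calls and 7.19% of the 584 chow calls (4.72% of genes tested). These were 22 higher and 20 lower genes, from the 2.55% and 2.17% of genes called higher and lower on chow. Signs matched for 171 of the 200 (85.5%), beside 59.7% of all genes tested. Csad differed by 1.9 ± 0.35 on HF/HS and 2.04 ± 0.35 on chow, Plin4 by 2.45 ± 0.30 and 1.8 ± 0.34, Atp2b2 by 2.48 ± 0.23 and 1.66 ± 0.37, and Gpx6 by -2.49 ± 0.33 and -3.24 ± 0.43. The test of the difference between diets gave these 4 genes edgeR adjusted p of 0.929, 0.588, 0.49 and 0.609, so that none was called as differing.

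The interaction of colonization and diet, which tests whether the difference changed with diet, gave no call in edgeR. Its smallest adjusted p was 0.0503, and 1573 genes had an unadjusted p below 0.05. DESeq2 called 150 genes, limma-voom none and a limma-trend fit of log2(TPM + 1) 1192, while edgeR called 436 without ConvR chow mouse 3 and 21 without ConvR HF/HS mouse 3. Of the 200 genes called on HF/HS, 114 had an unadjusted interaction p below 0.05. The interaction contains the HF/HS difference by which these 200 were picked. A high share was therefore favoured in advance and shows no dependence on diet by itself. Among the genes at 0.0503, singled out after their values were seen, were Fetub (-0.87 ± 0.10 on HF/HS, -0.02 ± 0.10 on chow), Abcb4 (0.53 ± 0.10 and -0.27 ± 0.10), Smo (-0.88 ± 0.13 and 0.21 ± 0.13), Utp14b (-1.19 ± 0.12 and -0.17 ± 0.12) and Saa2 (1.84 ± 0.80 and 9.93 ± 1.09). For Hamp the values were 4.65 ± 0.60 and 1.5 ± 0.51 (adjusted p = 0.171 for the interaction, edgeR), and for Cidec 4.26 ± 0.66 and 0.66 ± 0.85 (adjusted p = 0.238 by edgeR). Cyp3a11 differed by -0.07 ± 0.32 on HF/HS and by 2.25 ± 0.33 on chow (adjusted p = 0.0974 for the interaction, edgeR). None of these differences between diets passed the test.

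**Figure D5:**
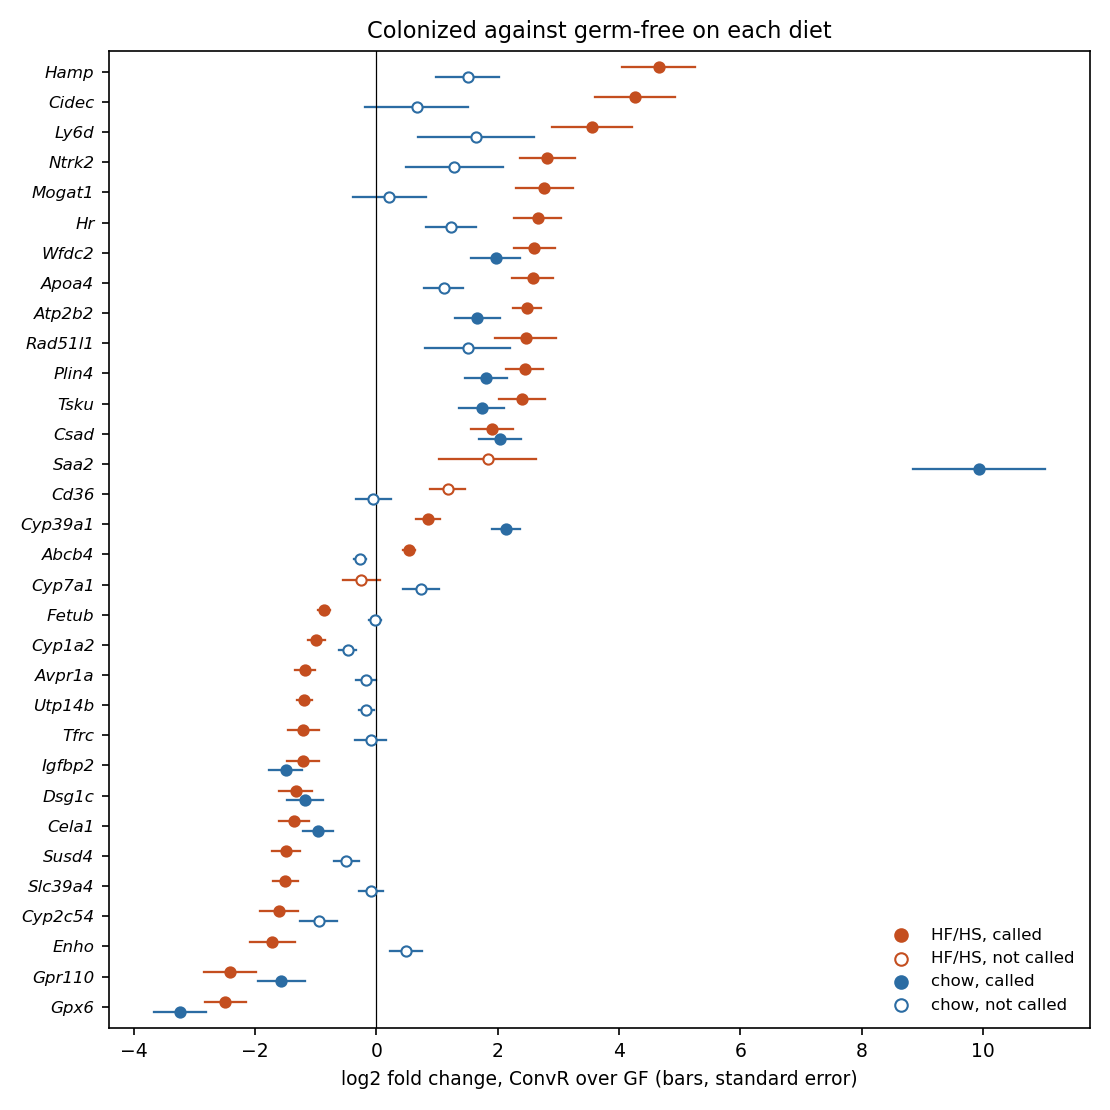
Log2 fold changes of ConvR over GF on HF/HS (orange) and chow (blue), with standard errors, for the genes on the vertical axis; filled points were called. Gpx6, Csad and Plin4 lie on the same side on both diets, Saa2 is far higher on chow, and Hamp, Cidec and Mogat1 are higher on HF/HS, though no interaction was called.

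Few calls held under every setting tried. Of all 200 called genes, 15 were called under each of 17 alternative settings, the 6 that leave out a mouse of this comparison included. All 15 were among the 63 called genes named here. They were Hamp, Apoa4, Plin4, Wfdc2, Atp2b2 and Spc25 among the higher and Gpx6, Slc39a4, Susd4, Avpr1a, Utp14b, Cyp1a2, F11, Fetub and Cnp among the lower. Every other called gene lost its call, or went untested, in at least one setting, and no named called gene changed direction in any of the 17.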

How the data were processed

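Polyadenylated RNA of 15 mouse livers had been sequenced from stranded libraries, 3 mice in each of 5 groups read from the sample titles. Per the submitters' processing notes, the authors used Bowtie2 and RSEM 1.2.23 with build mm9. The deposited expected counts, RSEM estimates per gene before scaling, were the values tested; the deposited TPM, scaled by the authors with RSEM within each library, served for an alternative and for sums over markers. Totals of expected counts were 17797480 to 21331381 in the 6 HF/HS livers and 14737578 to 21794811 in all. RSEM divides reads among near-identical genes, so Cyp2c, Ugt1a, Gsta, Saa, Mup, Dsg1, Hamp and Hba values are uncertain, and whether counting used the strand is not given in the sources used here.

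Expected counts were rounded to whole numbers. Genes were kept by filterByExpr (minimum count 10), scaled by TMM and fitted in edgeR 4.0.16 (R 4.3.3) with 5 group means over all 15 libraries, leaving 10 residual degrees of freedom; the shared biological coefficient of variation was 0.149. The two-sided quasi-likelihood F test with Benjamini-Hochberg adjustment over all 12377 genes called genes below 0.05. A standard error was taken as the size of a log2 fold change divided by the root of its F. CPM uses TMM-scaled totals. Alternatives used DESeq2 1.42.0, limma 3.58.1, other scalings, filters and samples. The fit was tested on simulated data.

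The comparison, gene lists and rules were chosen with earlier results of these data known. Named genes were the 12 largest called log2 fold changes each way (mean of at least 2 CPM, ranges not overlapping, no predicted or small RNA genes), the 6 smallest adjusted p each way beyond these, up to 4 called members of each list or, with none, up to 2 with the smallest p, and Cyp7a1, Fasn, Scd1, Cyp3a11, Cd36, Saa2 and Csad. Other list members are given where they define the list. Lists under 5 tested genes are given as values. Tfr2, Hmgcs1, Gbp7, Setd1b, Ly6g, Mzb1, Hbb-bt and Hbb-bs are not analysed here. Mice of equal replicate number were not treated as pairs: correlations of deviations of same-numbered ConvR and GF mice were -0.126, 0.0279 and -0.0314. Of 119 named genes 119 matched the RefSeq table, of which 17 overlap another coding gene; positions are given only for promoters, on GRCm38.p6, since the counts are on mm9. Most list members are counted without being named, and some are not reported here.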

Additional observations from a re-analysis of the deposited data

How the results depend on the processing

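Scaling decided the balance of calls. Scaled by library totals alone, 765 genes were called in ConvR against GF livers on HF/HS (715 higher, 50 lower), and a limma-trend fit of log2(TPM + 1) called 791 (742 higher, 49 lower), against 200 (109 and 91) with TMM. DESeq2's Wald test called 515 (271 higher, 244 lower). Fitting the compared groups alone called 457 (230 higher, 227 lower), and dropping ConvR chow mice 1 and 2 and GF chow mouse 1 from the shared fit called 814 (403 higher, 411 lower); the cause was not tested. The remaining settings that kept all 6 mice called 143 to 249. Leaving out one HF/HS mouse gave 16 to 280 called genes, 7 to 171 higher and 9 to 109 lower, the least without GF mouse 2. With one mouse left out, 2 livers stand for the group.

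The interaction called none in edgeR, 6 with scaling by totals alone, 2 without a filter on low counts, 11 with a stricter filter, 150 in DESeq2's Wald test and 1192 in limma-trend on TPM. Leaving out one mouse gave 0 to 436 calls, the 436 without ConvR chow mouse 3 and 21 without ConvR HF/HS mouse 3.

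A replicate block over all 15 libraries, joining same-numbered mice of every group, left 143 genes called (75 higher, 68 lower). The numbers share no stated origin and did not pair the mice. Among list medians, 17 of 45 changed sign when scaled by totals alone and 18 of 45 on TPM, each of these lists with a main median between -0.18 and -0.01; the lists of lipid droplets, fatty acid oxidation, cell cycle, NRF2 targets, cholesterol synthesis, coagulation, amino acid breakdown and ribosomal proteins kept theirs in every setting tried. Of 20325 genes listed 12377 passed the filter on low counts; without it 16284 were tested and 197 called, 184 of them shared with the 200.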

Other observations

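Some called genes lie outside the rule for named genes and are given here because their values stood out once seen. Lgals1, galectin-1, stood at 11.8, 8.51 and 10.4 CPM in GF and 40.4, 58.2 and 24.3 CPM in ConvR livers on HF/HS, a log2 fold change of 2.00 ± 0.31 (adjusted p = 0.00629, edgeR). Anxa2, annexin A2, rose from 21.6, 17.9 and 17.5 to 49.6, 55.3 and 20.5 CPM (1.14 ± 0.25, adjusted p = 0.0391 by edgeR), with ConvR mouse 3 inside the GF range. Slc39a5, the basolateral zinc importer ZIP5, measured 0.202, 0.2102 and 0.407 CPM in GF and 2.203, 4.898 and 1.23 CPM in ConvR mice (3.33 ± 0.62, adjusted p = 0.0179 by edgeR), opposite in direction to Slc39a4. Agpat9, an acyltransferase of glycerolipid synthesis, went from 1.27, 0.631 and 1.92 to 6.998, 10.1 and 2.502 CPM (2.37 ± 0.46, adjusted p = 0.0219 by edgeR), and Gal3st1, a sulfotransferase for glycolipids, from 0.202, 0.105 and 0.116 to 1.38, 3.96 and 0.955 CPM (3.8 ± 0.63, adjusted p = 0.00866). For Lgals1, Slc39a5, Agpat9 and Gal3st1 ConvR mouse 2 was the highest and mouse 3 the lowest.

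Among genes of energy use and transport, the mitochondrial carrier Ucp2 rose from 20.8, 19.5 and 18.6 to 31.7, 46.5 and 31.4 CPM (0.89 ± 0.19, adjusted p = 0.0305, edgeR), and by 0.80 ± 0.19 on chow, where it was also called. Dio1, which activates thyroid hormone, rose by 0.67 ± 0.16 (adjusted p = 0.0493 by edgeR). Slc38a3, the glutamine transporter of hepatocytes, fell from 1386, 1451 and 1399 to 924, 764 and 894 CPM (-0.71 ± 0.14, adjusted p = 0.0268 by edgeR). Further mitotic genes called were the kinesins Kif20a, from 0.8604, 0.893 and 0.699 to 2.76, 3.02 and 1.41 CPM (1.54 ± 0.27, adjusted p = 0.0116), and Kif2c (2.76 ± 0.61, adjusted p = 0.0366 by edgeR), which stayed below 1 CPM in all 6 livers. Ptges, prostaglandin E synthase, and Npnt, a matrix protein, rose by 1.81 ± 0.39 and 2.29 ± 0.48 on HF/HS and by 2.78 ± 0.66 and 2.54 ± 0.54 on chow, called on both.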
